A study of Mus musculus with 12 samples.

Results

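The response of sph/sph liver macrophages to an agonistic antibody against CD40 was measured by bulk RNA sequencing, in the 3 libraries labelled sph/sph and anti-CD40 against the 3 labelled sph/sph and saline. These 6 libraries, of 12 in the series, were chosen by genotype and treatment. All genes that passed a filter on low counts were examined: 13844 of the 25700 gene identifiers in the table. The sph/sph mice carry the sph allele on both chromosomes and make fragile red cells that macrophages remove. Levels are in CPM, counts scaled to the TMM-adjusted library size. Treated mice received 20 mg/kg of agonistic anti-CD40 into the peritoneum and cells were taken 30 h later; controls received saline by the same route, so the comparison holds no control antibody. The remaining 6 libraries came from littermates labelled wild type (WT), 3 given saline and 3 anti-CD40, and served to compare the responses. All mice were 8 to 10 weeks old and labelled male, and the series' design text counts a mouse per library. In every group the cells were released by perfusing the liver with collagenase and pulled down with beads against F4/80, which enriches macrophages and does not sort them to purity.

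CD40 is a receptor of the TNF receptor family on macrophages, dendritic cells and B cells. Its cytoplasmic tail binds TRAF adaptor proteins, which switch on the canonical and the noncanonical NF-kB pathway and lead to cytokines, costimulatory molecules and antigen presentation. An agonistic antibody given to a mouse reaches all CD40-bearing cells, and T and NK cells that are activated in turn release interferon-gamma, which acts on macrophages. The liver's own resident macrophages, Kupffer cells, express Clec4f, Vsig4 and Timd4, clear old red cells, break down heme with Hmox1 and export iron through Slc40a1.

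Libraries are called A, B and C within a group in the order of their columns, which carry no replicate number. The names of the columns hold other numbers, whose meaning is not stated; library A of sph/sph and of WT share such a number under saline and another under anti-CD40, and no number is shared between saline and anti-CD40. Total counts ran from 14991250 to 18984067 over the 12 libraries. Library A of each group, 4 of 12 in all, had no count of the Y-linked genes Ddx3y, Eif2s3y, Kdm5d and Uty although the labels name male mice. Headers of the WT columns read heterozygous, against wild type in the labels; the labels are followed here. Defining macrophage genes were present in all 6 sph/sph libraries: the F4/80 gene Adgre1 stood at 1907, 1430 and 1886 CPM under saline and at 1178, 2237 and 1101 CPM in treated A, B and C.

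Treated library C stood apart from treated A and B in several measures, but not in the largest source of variation. Along the leading component, which held 49.3%, treated A, B and C lay together at 8.85, -4.03 and -8.09. All 3 were clear of the sph/sph saline libraries (-84.4 to -51.4) and of the treated WT libraries (104 to 134). On the second principal component (20.3% of the variance over all 12 libraries) A and B lay at 102 and 75.8, C at -26.5 and the sph/sph saline libraries between -12.8 and 35. Summed, 24 B cell and plasma cell markers were at 433 to 644 CPM under saline. They were at 632, 280 and 6558 CPM in treated A, B and C. In C 23 of the 24 markers lay above all 3 saline libraries, against 33.9% of all genes tested. The defining gene Cd79a, a chain of the B cell receptor, stood at 12.4, 4.66 and 313 CPM in treated A, B and C, against 2.68 to 13.3 CPM under saline. Megakaryocyte markers summed to 280, 326 and 1171 CPM and endothelial markers to 1487, 2284 and 5099 CPM in A, B and C, against 578 to 898 and 2021 to 5185 CPM under saline. The 14 general macrophage markers summed to 17676 to 24073 CPM under saline and to 19456, 19901 and 11767 CPM in A, B and C. In C 13 of 14 lay below all 3 saline libraries, against 34.6% of all genes tested. T and NK cell markers summed to 103 to 117 CPM under saline and to 406, 183 and 409 CPM in A, B and C, and hepatocyte markers to 5146 to 14936 CPM and 5768, 5109 and 8569 CPM. Mitochondrial genes took 2.14%, 1.33% and 3.28% of counts in treated A, B and C, and 1.09% to 1.72% under saline. Values are therefore given by library, and calls with and without C; the part of these cell markers in the results below was not tested. In a bulk sample, fewer cells of a type and less RNA per cell cannot be told apart.

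**Figure D1:**
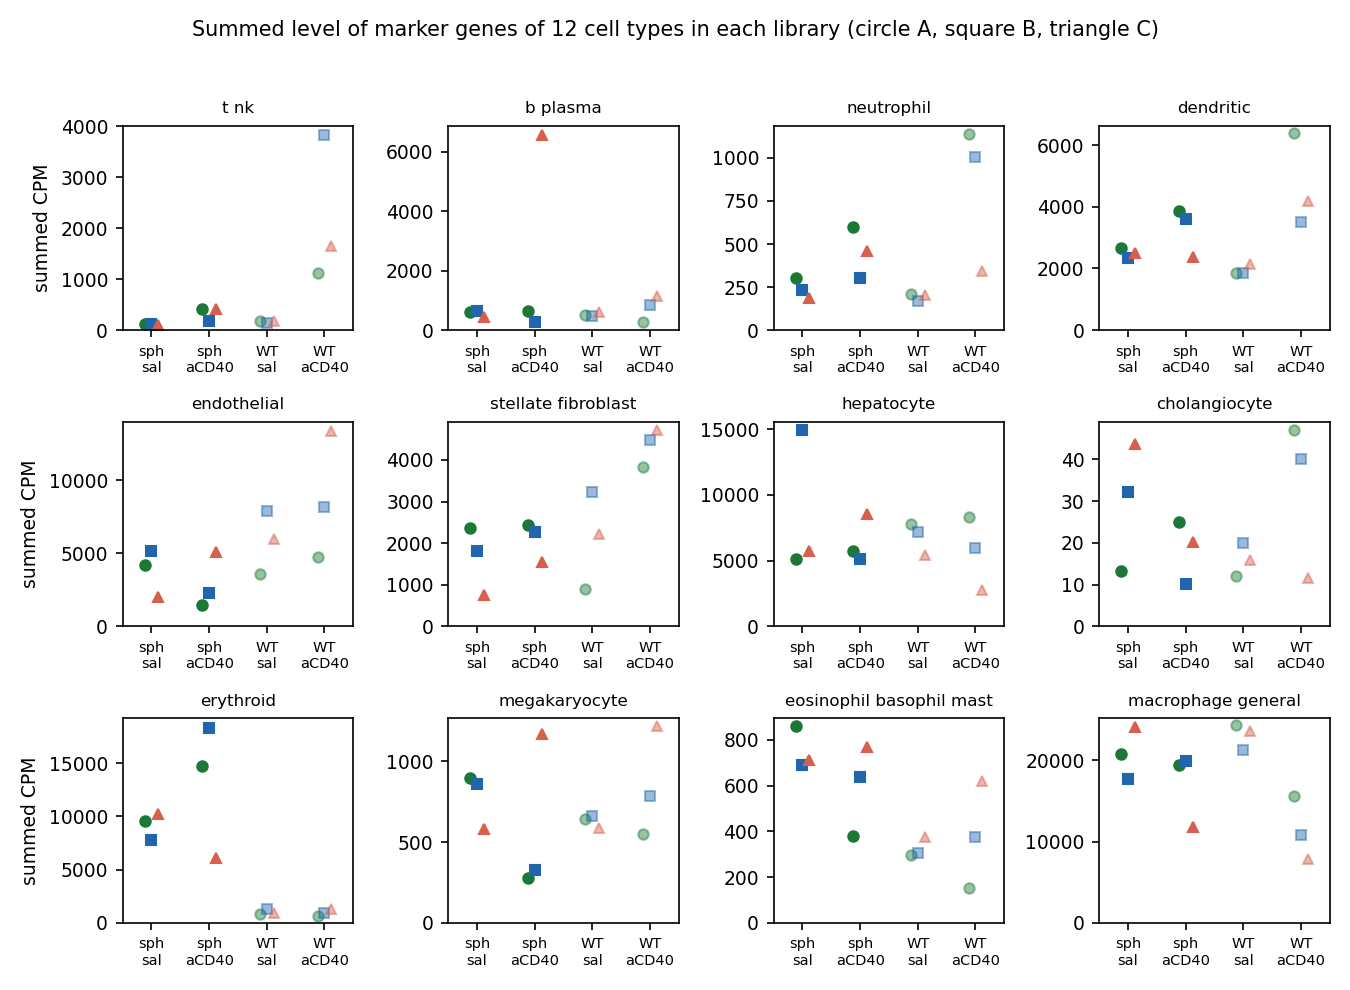
Summed CPM of the marker genes of 12 cell types (linear axis from 0) in each library of the 4 groups (sal, saline; aCD40, anti-CD40), with circles for A, squares for B and triangles for C. The triangle of treated sph/sph C is at 6558 CPM in the panel of B cell and plasma cell markers, above the 11 other libraries.

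With all 12 libraries in the fit (edgeR quasi-likelihood test, Benjamini-Hochberg adjusted p under 0.05, 3 libraries per group), 80 genes rose and 28 fell in sph/sph. This is 0.578% and 0.202% of the genes tested; 2901 genes had an unadjusted p under 0.05. For each of the 108 genes the 3 treated libraries lay entirely above or below the 3 saline libraries. Such separation was common among all genes tested: 10.1% had all treated libraries above all saline libraries and 11.6% had all below. The median log2 fold of the risen genes was 2.30 and that of the fallen genes -1.15, against 0.04 over all genes tested. Of the risen genes 78, and of the fallen genes all 28, were also called in the same direction in WT, where 2690 genes rose and 2730 fell. The number of calls depended on single libraries. Without sph/sph saline A, B or C none was called; without treated A 1 rose and none fell, and without treated B 16 rose and 1 fell. The WT libraries share the estimate of the spread: without WT saline A, B or C 38, 43 and 25 genes rose and 5, 4 and 4 fell, and without WT anti-CD40 A, B or C 121, 41 and 49 rose and 107, 7 and 17 fell. Without treated C, 1382 genes rose (9.83% of 14066 tested) and 990 fell (7.04%), among them all 108 in the same direction. That fit holds only A and B in the treated group, and C was singled out because of its values. Leaving out a library that stands apart tends to narrow the spread and raise the calls. Calls without C therefore describe A and B and are no independent support. The 108 genes separated in all libraries, so their staying called is no further test. DESeq2 on all libraries called 726 risen and 654 fallen, and the edgeR fit of the 6 sph/sph libraries alone called none.

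**Figure D2:**
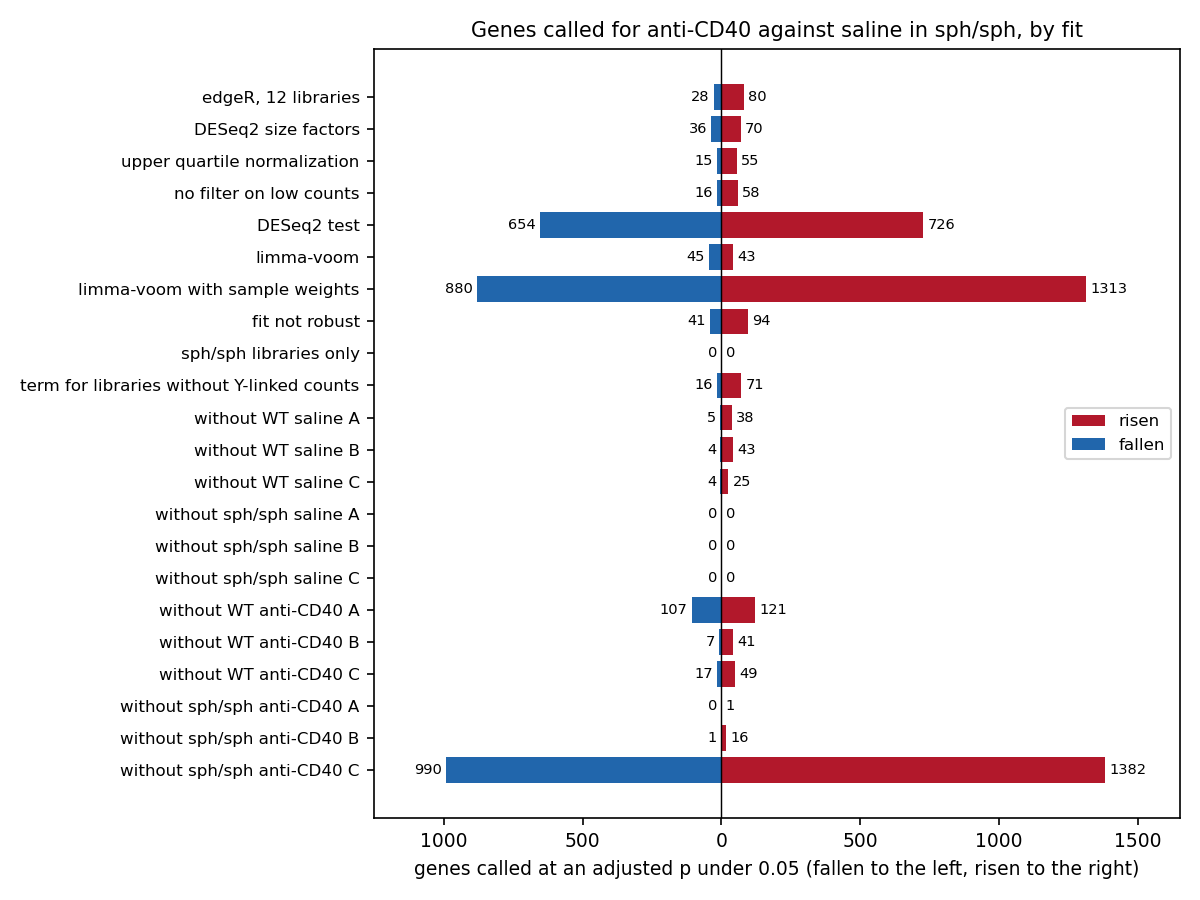
Number of genes called at an adjusted p under 0.05 for anti-CD40 against saline in sph/sph (fallen to the left, risen to the right) in each fit tried. The bar without sph/sph anti-CD40 C reaches 1382 risen and 990 fallen genes, and the fits without a sph/sph saline library have no bar.

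Genes of CD40 signalling and NF-kB gave 5 of the calls, more than any other of the 33 gene lists, and these 5 were above saline in A, B and C. B cells also carry CD40, and their summed markers were at 6558 CPM in C, against 433 to 644 CPM under saline. The part of B cells in the levels of these genes in C was not tested. Of 36 genes on the list of CD40 and NF-kB genes, 5 rose (Cd40, Traf1, Nfkb2, Nfkbie and Icosl) and none fell, where 0.578% of all genes tested rose. In 16 all treated libraries lay above all saline libraries, against 10.1% of all genes tested. The list's median log2 fold was 0.84. Without C, 22 of the 36 rose and none fell, where 9.83% of all genes tested rose and 7.04% fell. Cd40, the receptor the antibody binds (ENSMUSG00000017652, GRCm38 chromosome 2, 165055627 to 165072948), stood at 12.2, 14 and 12.1 CPM under saline and at 116, 111 and 41.2 CPM in treated A, B and C. All treated libraries were higher, with C nearest to saline. The mean went from 12.8 ± 1.03 to 89.4 ± 41.9 CPM (SD, n = 3), a log2 fold of 2.81 (SE 0.52, edgeR adjusted p = 0.0475). Traf1, an adaptor of TNF receptor family members (ENSMUSG00000026875, chromosome 2, 34941750 to 34961772), was at 3.19, 2.79 and 1.28 CPM under saline and at 120, 73.4 and 25 CPM in A, B and C (log2 fold 4.91, SE 0.72, adjusted p = 0.0237). Leaving out each of the 12 libraries in turn kept the call of Cd40, Nfkbie and Icosl in 2 fits and that of Traf1 and Nfkb2 in 7.

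Nfkb2, whose product is processed to the p52 subunit of the noncanonical pathway, went from 51.6, 50.5 and 43.7 CPM to 268, 229 and 132 CPM (log2 fold 2.11, adjusted p = 0.0237). Nfkbie, an inhibitor that holds NF-kB in the cytoplasm, went from 23, 22.9 and 24.4 CPM to 156, 141 and 42.6 CPM (log2 fold 2.27, adjusted p = 0.0494). Both were lowest in C among the treated libraries, without overlap with saline. Icosl, the ligand of the T cell costimulator ICOS and also a B cell gene, had the opposite order, with 9.11, 8.96 and 5.64 CPM under saline and 25.8, 28.8 and 111 CPM in A, B and C (log2 fold 2.80, adjusted p = 0.0462; 1.78 and 0.00139 without C). Relb, partner of p52, missed the threshold at 143, 115 and 35.2 CPM in A, B and C against 19 to 22.3 CPM under saline (log2 fold 2.20, adjusted p = 0.0664). Icam1, an adhesion molecule, did not separate the groups: 747 and 762 CPM in A and B, 118 CPM in C, and 146 to 171 CPM under saline.

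Promoter sequences are shown for risen genes of this group and for interferon-gamma and chemokine genes described further on, so that the 2 patterns over libraries can be set beside the sequence. Each run holds the 250 bases before a RefSeq transcription start (GRCm38.p6, read 5′ to 3′ on the gene's strand), with capitals for matches on either strand to the NF-kB consensus, to TTCNNNGAA (the interferon-gamma activated site, GAS) or to GAAANNGAA (the core of an interferon-stimulated response element); where matches overlap they share capitals. For Nfkb2, the first of its 3 starts in the table is shown.
Nfkb2, chr19:46304487-46304736, forward strand: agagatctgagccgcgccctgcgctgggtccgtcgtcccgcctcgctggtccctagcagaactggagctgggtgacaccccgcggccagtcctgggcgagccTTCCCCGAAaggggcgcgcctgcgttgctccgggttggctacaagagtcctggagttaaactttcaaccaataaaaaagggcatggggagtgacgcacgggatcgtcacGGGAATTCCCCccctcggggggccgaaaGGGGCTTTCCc
Nfkbie, chr17:45555450-45555699, forward strand: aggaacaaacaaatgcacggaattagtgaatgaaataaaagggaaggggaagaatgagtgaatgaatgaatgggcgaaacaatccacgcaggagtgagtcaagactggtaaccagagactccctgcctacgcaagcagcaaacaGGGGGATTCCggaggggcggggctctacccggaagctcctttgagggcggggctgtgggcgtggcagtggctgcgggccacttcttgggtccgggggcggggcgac
Icosl, chr10:78069118-78069367, forward strand: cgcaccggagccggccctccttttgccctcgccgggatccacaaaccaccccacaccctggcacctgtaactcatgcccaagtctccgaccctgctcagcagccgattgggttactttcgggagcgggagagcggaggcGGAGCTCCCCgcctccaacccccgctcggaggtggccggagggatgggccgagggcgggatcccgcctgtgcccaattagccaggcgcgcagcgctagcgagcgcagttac
Traf1, chr2:34961773-34962022, reverse strand: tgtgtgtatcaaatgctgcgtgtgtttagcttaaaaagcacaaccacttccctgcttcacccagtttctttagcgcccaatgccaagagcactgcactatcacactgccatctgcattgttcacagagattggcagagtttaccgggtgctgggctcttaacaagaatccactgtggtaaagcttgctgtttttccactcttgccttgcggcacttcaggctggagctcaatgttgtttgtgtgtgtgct
Cxcl9, chr5:92328080-92328329, reverse strand: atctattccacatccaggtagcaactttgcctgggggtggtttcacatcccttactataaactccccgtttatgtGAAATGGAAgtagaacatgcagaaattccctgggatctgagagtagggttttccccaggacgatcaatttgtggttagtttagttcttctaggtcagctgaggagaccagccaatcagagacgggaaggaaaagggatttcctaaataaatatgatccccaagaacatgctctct
Cxcl10, chr5:92348890-92349139, reverse strand: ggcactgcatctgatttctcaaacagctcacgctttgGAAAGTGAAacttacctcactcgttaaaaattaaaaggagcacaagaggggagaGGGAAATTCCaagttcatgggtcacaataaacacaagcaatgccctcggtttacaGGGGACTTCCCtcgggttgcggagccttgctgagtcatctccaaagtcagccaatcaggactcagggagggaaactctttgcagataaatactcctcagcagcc
Gbp2, chr3:142620413-142620662, forward strand: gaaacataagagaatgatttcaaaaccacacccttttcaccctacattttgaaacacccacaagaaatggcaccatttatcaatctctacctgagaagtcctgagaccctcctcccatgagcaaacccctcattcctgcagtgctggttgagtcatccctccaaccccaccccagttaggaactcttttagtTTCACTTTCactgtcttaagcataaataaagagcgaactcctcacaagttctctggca
Ubd, chr17:37193642-37193891, forward strand: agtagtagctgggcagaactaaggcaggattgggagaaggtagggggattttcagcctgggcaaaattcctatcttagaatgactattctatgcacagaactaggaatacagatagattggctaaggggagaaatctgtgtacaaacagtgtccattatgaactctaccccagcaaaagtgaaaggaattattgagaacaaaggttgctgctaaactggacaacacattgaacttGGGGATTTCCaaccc
The Nfkb2 sequence holds 3 NF-kB matches, a pair of which overlap 1 base apart, and 1 GAS match, those of Nfkbie and Icosl hold 1 NF-kB match each and that of Traf1 none. The Cxcl10 sequence holds 3 NF-kB matches, again with such a pair, and 1 response element core, those of Cxcl9 and Gbp2 1 core each and that of Ubd 1 NF-kB match. Over whole RefSeq promoters of 300 bases (50 after the start), an NF-kB match was found in 8.46% of all 32851 promoters and in 10.3% of those of tested genes. It was found in 20% of 90 promoters of 63 matched risen genes, in 17.9% of 28 promoters of fallen genes and in 41.2% of 34 promoters of the CD40 and NF-kB list. The share was 23.3% on the interferon-gamma list and 12.2% of 1372 promoters of genes that rose without C. The response element core was found in 8.56% of all promoters, 10% of those of risen genes and 46.7% of 30 promoters of the interferon-gamma list, and GAS in 8.3%, 10% and 36.7%. On the CD40 and NF-kB list each of these motifs was at 8.82%. A match is a run of letters and does not show that a factor binds there.

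The risen gene with the lowest adjusted p was Il4i1, an L-amino acid oxidase secreted by myeloid cells (ENSMUSG00000074141, chromosome 7, 44816387 to 44840809). It stood at 6.72, 8.37 and 6.63 CPM under saline and at 288, 171 and 105 CPM in A, B and C. The rise was 25.9-fold (log2 fold 4.70, SE 0.43, adjusted p = 0.00757), and it held in 9 of the 12 fits that left out a library. Of the genes in the next sentences it held in 7 for Cst7, 6 for Il2rg, 5 for Malt1 and Ly75 and 3 for Il1r2. The annotation overlaps Il4i1 with Nup62 on the same strand; Nup62 was at 43.4 to 50.7 CPM under saline and at 70.2, 70.9 and 52.3 CPM when treated. Il2rg, the shared gamma chain of several interleukin receptors, went from 74.8, 49.4 and 62.3 CPM to 440, 393 and 139 CPM (adjusted p = 0.0256). Malt1, a protease of NF-kB signalling, went from 21.1, 19.4 and 16.2 CPM to 116, 158 and 66.2 CPM (adjusted p = 0.0256). Ly75, an endocytic receptor also known as DEC-205, went from 1.4, 1.31 and 0.815 CPM to 39.3, 36.7 and 6.58 CPM (adjusted p = 0.0294). Cst7, the protease inhibitor cystatin F, went from 0.798, 0.712 and 0.407 CPM to 27.2, 13 and 5.13 CPM (adjusted p = 0.0237). In these genes C was the lowest treated library and still lay above saline. Il1r2, a decoy receptor for interleukin 1 that is also a neutrophil gene, had the same order at low levels, from 0.0594 to 0.2 CPM under saline to 5.53, 4.22 and 0.648 CPM (adjusted p = 0.0336).

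Among the 8 risen genes outside all lists with the largest log2 fold, Colq, the collagen tail subunit of acetylcholinesterase, had the widest contrast: 4 counts over the 3 saline libraries, and 26.7, 14.9 and 2.27 CPM in treated A, B and C (log2 fold 7.37, SE 1.20, adjusted p = 0.0294; called in 5 of the 12 fits that left out a library). Sema4d, a membrane semaphorin, was at 15.4, 11.6 and 4.6 CPM and then at 148, 144 and 82.3 CPM. In Gpr183 (a receptor for oxysterols), St8sia6 (a sialyltransferase) and Gpr18 (a lipid-sensing receptor), C was the highest library: Gpr183 was at 0.465 to 1.13 CPM under saline and at 10.4, 5.1 and 37.2 CPM in A, B and C. Over all 80 risen genes C was the highest treated library in 26 and the lowest in 39. The 26 include Coro1a, an actin-binding protein of leukocytes (385, 231 and 435 CPM, 63.2 to 102 under saline) and H2-Eb2. Several of these genes are also expressed by B cells, whose markers were high in C, and the part of B cells in these values was not tested. Without C all 80 risen genes were called, these 26 among them. There the log2 fold was 3.18 for Gpr183 (4.38 with all libraries), 2.96 for St8sia6 (4.30) and 3.73 for Gpr18 (4.19). With each library left out in turn, the call held in 8 of 12 fits for Gpr18 and H2-Eb2, 7 for Coro1a and Sema4d and 3 for Gpr183 and St8sia6.

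Some risen genes had similar levels in the 3 treated libraries. Senp1, a SUMO protease, was at 29.9, 31.9 and 29.6 CPM under saline and at 48.3, 55.6 and 48.8 CPM when treated (log2 fold 0.74, adjusted p = 0.0255). Utp20, of ribosome assembly, went from 18.4, 24.2 and 18.9 CPM to 35.6, 40.8 and 36.3 CPM (log2 fold 0.88, adjusted p = 0.0237). Nfkbid, a nuclear NF-kB regulator, went from 13.1, 10.3 and 13.1 CPM to 33.3, 34.2 and 29.7 CPM (log2 fold 1.42, adjusted p = 0.0491), and Tlr9, a receptor for unmethylated DNA, from 10.6, 8.07 and 6.34 CPM to 30.1, 48.2 and 31.1 CPM (log2 fold 2.13, adjusted p = 0.0237). These 4 genes were chosen after their values were seen.

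The 28 fallen genes changed less than the risen ones, with log2 folds from -2.01 to -0.58, and C was the treated library nearest to saline in 24 of them. Zdhhc14, a protein palmitoyltransferase, had the largest fall, from 100, 77.5 and 125 CPM to 16.4, 14.8 and 43.9 CPM (log2 fold -2.01, SE 0.38, adjusted p = 0.0475). Cebpa, a transcription factor of myeloid cells, went from 181, 173 and 197 CPM to 56.5, 58.8 and 101 CPM (log2 fold -1.35, adjusted p = 0.0407). Arhgap39, a GTPase-activating protein, went from 84.9, 61.8 and 83.4 CPM to 25.6, 28.8 and 31.9 CPM (log2 fold -1.41, adjusted p = 0.0237), with C close to A and B. Jup, the junction protein plakoglobin, went from 197, 209 and 218 CPM to 78.6, 83.7 and 110 CPM (log2 fold -1.20, adjusted p = 0.0237). Kcnj9, a potassium channel subunit, went from 16.2, 13.4 and 15.4 CPM to 4.42, 2.88 and 6.74 CPM (log2 fold -1.68, adjusted p = 0.0469). Ccdc148, a coiled-coil protein, went from 235, 176 and 235 CPM to 58.9, 64.3 and 122 CPM (log2 fold -1.40, adjusted p = 0.0491), and Tmem273 from 41.4, 31.5 and 45.5 CPM to 11.5, 11.4 and 20.8 CPM (adjusted p = 0.0454). The enzyme genes Acy3 and Dcxr were lower in all 3 treated libraries as well, at 3.11, 2.88 and 5.83 CPM against 10.1 to 10.5 for Acy3 (adjusted p = 0.0491) and at 28.4, 19.1 and 32.8 CPM against 64.5 to 75.5 for Dcxr (adjusted p = 0.0353). Each of these genes had lower values in all 3 treated libraries than in any saline library. With each library left out in turn, the fall stayed called in 7 of 12 fits for Arhgap39 and Jup, 3 for Cebpa and Dcxr, and 2 for Zdhhc14, Kcnj9, Ccdc148, Tmem273 and Acy3.

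Genes induced by interferon-gamma were high in A and B and not in C. None of the 36 tested genes of the interferon-gamma list was called with all libraries. In A all 36, in B 35 and in C 5 lay above all 3 saline libraries; over all genes tested these shares were 39.1%, 35.1% and 33.9%. In C 15 of the 36 lay below all 3 saline libraries; over all genes, 37.4% in A, 34.3% in B and 34.6% in C did so. The median difference from the saline mean over the list, in log2(CPM + 1), was 2.02 in A, 1.91 in B and -0.30 in C. Without C, 30 of the 36 rose and none fell, where 9.83% of all genes tested rose and 7.04% fell. Ubd, a ubiquitin-like protein induced by interferon-gamma and TNF, was at 0.998, 0.237 and 0.582 CPM and then at 161, 77.4 and 0.432 CPM (adjusted p = 0.0628; 0.000429 without C). Gbp2, a guanylate-binding protein, was at 226, 97.4 and 175 CPM and then at 899, 1368 and 102 CPM (log2 fold 2.25, adjusted p = 0.123; 2.76 and 0.00191 without C). In Ubd and Gbp2, C lay inside the saline range. Type I interferon-stimulated genes followed the same order, with medians of 1.25, 1.03 and -0.82: 29 of 33 lay below all saline libraries in C, and 19 of 33 rose without it.

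Chemokines and inflammatory cytokines showed the same split. None of 20 tested chemokines and none of 21 cytokines and mediators was called with all libraries. Without C, 12 chemokines and 9 mediators rose and none fell, where 9.83% of all genes tested rose and 7.04% fell. Cxcl9, which attracts T cells (ENSMUSG00000029417, chromosome 5, 92321347 to 92328079), was at 49.7, 11.1 and 15.5 CPM under saline and at 788, 683 and 12.8 CPM in A, B and C (log2 fold 4.28, SE 1.15, adjusted p = 0.0949; 4.85 and 0.0018 without C). Cxcl10, of the same family, was at 15.2, 6.95 and 7.33 CPM and then at 432, 284 and 5.23 CPM. Ccl2, which attracts monocytes, was at 3.96 to 6.12 CPM under saline and at 86.4, 58.4 and 1.3 CPM in A, B and C. Tnf went from 2.19, 3.38 and 3.61 CPM to 44.8, 94.7 and 2.91 CPM, and Nos2, which makes nitric oxide, from 0.2, 0.831 and 0.175 CPM to 38.6, 35.9 and 0.378 CPM. The interleukin 12 subunit Il12b was low, at 1.87, 3.85 and 0.162 CPM against 0.116 to 0.865 CPM under saline. Il1b, a cytokine processed by the inflammasome, was at 138, 251 and 16.5 CPM against 46.1 to 64.1 CPM under saline, and Il6 at 4.97, 11.6 and 0.54 CPM against 1.34 to 1.54 CPM. In A and B, Cxcl9, Cxcl10, Ccl2, Tnf and Nos2 were above all saline libraries, while C was inside the saline range or below it.

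The genes with a mean of at least 50 CPM that differed most among the 3 treated libraries had the same order, apart from Ighd and Ddx3y. Acod1, which makes itaconate, was at 365, 395 and 0.324 CPM in A, B and C, against 0.772 to 2.53 CPM under saline. Clec4e, the receptor Mincle, was at 254, 282 and 2.16 CPM against 1.05 to 3.86, Saa3, an acute-phase protein, at 325, 143 and 1.35 CPM against 1.13 to 2.13, and Ly6i, a surface protein of activated macrophages, at 225, 106 and 0.162 CPM against 0.407 to 2.46. Ighd, an immunoglobulin heavy chain of naive B cells, had the reverse order, at 6.43, 2 and 483 CPM against 3.72 to 21.3 under saline. Ddx3y was 0 in A and near 92 CPM in B and C. The complement gene Cfb, added to the named genes after its values were seen, was at 3890, 4135 and 121 CPM in A, B and C, against 160 to 225 CPM under saline.

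**Figure D3:**
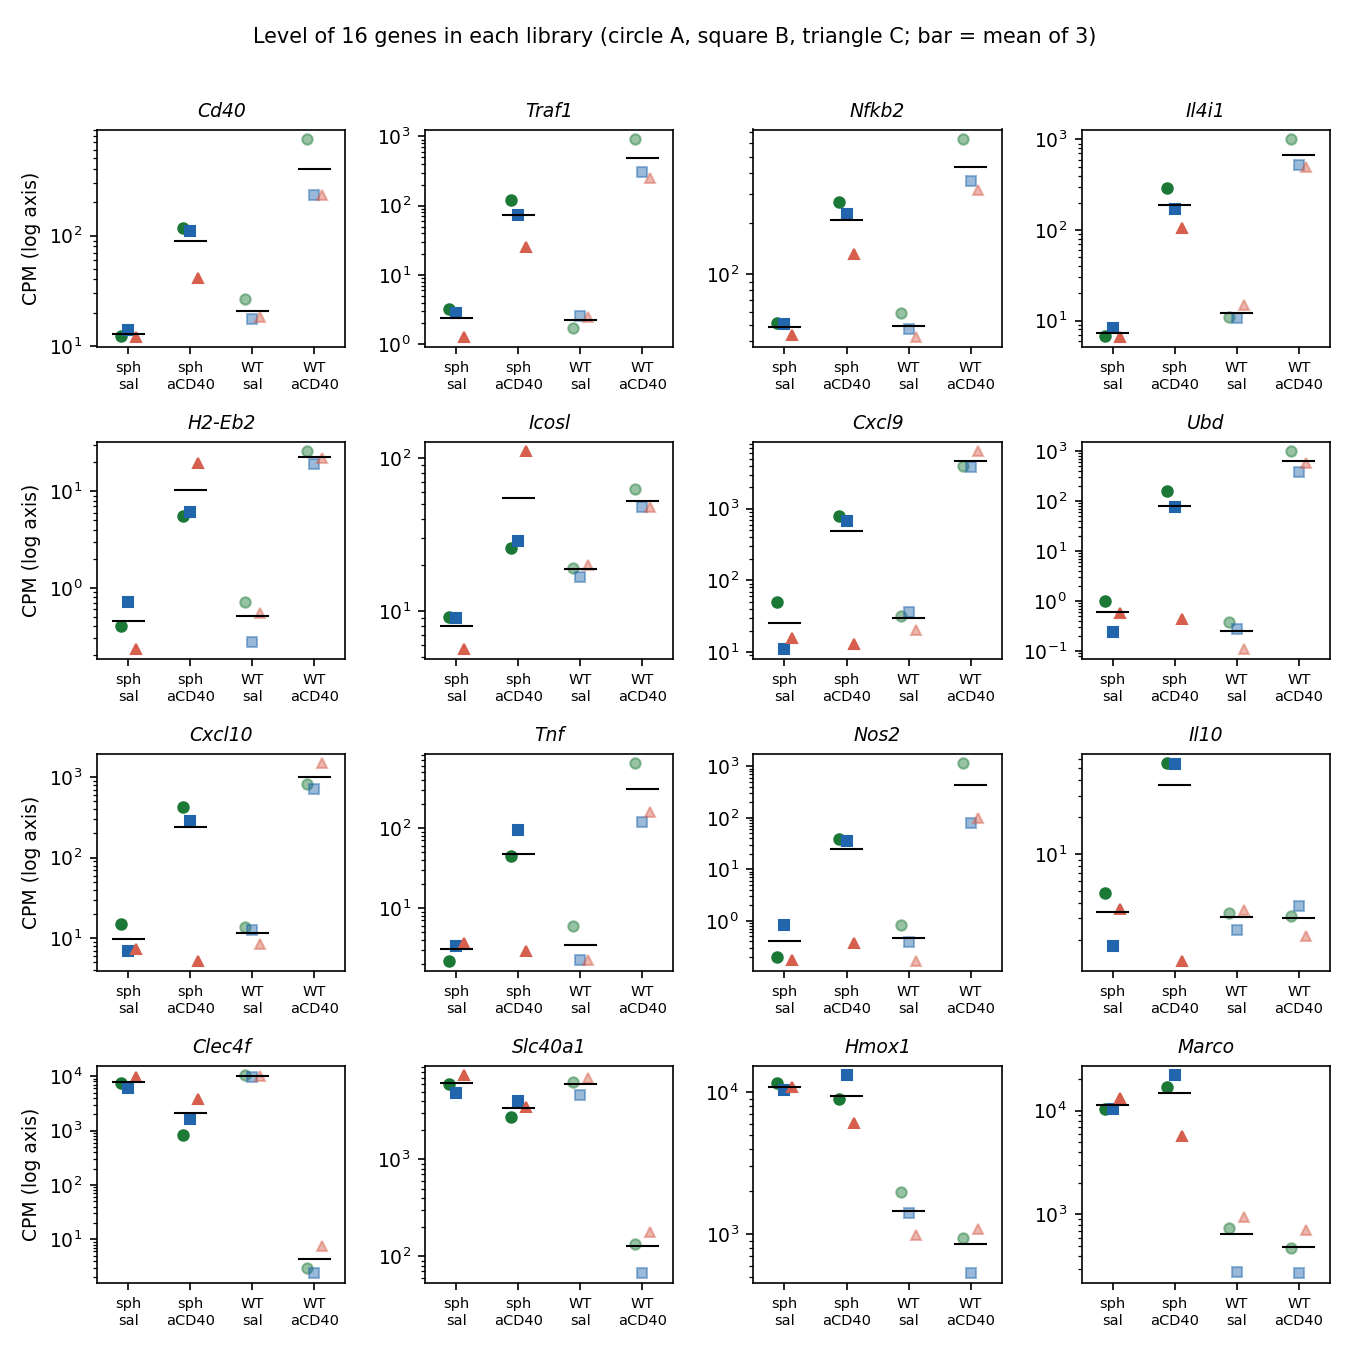
CPM of 16 genes (log axis) in each library of the 4 groups (sal, saline; aCD40, anti-CD40), with circles for A, squares for B, triangles for C and a bar at the mean of 3. For Cd40, Traf1, Nfkb2, Il4i1, H2-Eb2 and Icosl all 3 treated sph/sph libraries lie above saline, whereas for Cxcl9, Ubd, Cxcl10, Tnf, Nos2 and Il10 the triangle of treated C lies at the saline level or below.

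Many monocyte genes and genes of glycolysis were also higher in A and B. Of 34 monocyte genes 3 rose with all libraries, among them Ms4a4c and Ly6c1, and none fell. Without C, 25 rose and none fell, where 9.83% of all genes tested rose and 7.04% fell. Ms4a4c, a membrane protein of monocytes, was at 13.6, 4.87 and 8.9 CPM under saline and at 189, 109 and 43.7 CPM in A, B and C (log2 fold 3.64, SE 0.59, adjusted p = 0.0294; called in 4 of the 12 fits that left out a library). Ly6c2, the marker of classical monocytes, was at 21.5, 2.97 and 6.11 CPM and then at 359, 141 and 31.1 CPM, above saline in all 3 libraries but short of the threshold (adjusted p = 0.0737; 0.00652 without C). Ly6c1, the endothelial and monocyte form, was at 0.266, 0.119 and 0.291 CPM and then at 1.93, 0.814 and 0.863 CPM (adjusted p = 0.0462; called in 2 of those 12 fits). Ly6c1 and Ly6c2 are near-identical copies, so the split of reads between them is uncertain. None of 35 tested genes of glycolysis and hypoxia was called with all libraries, and without C 19 rose and 1, Epas1, fell. Pgk1, a glycolytic kinase chosen after its values were seen, was at 123, 118 and 153 CPM under saline and at 494, 664 and 110 CPM in A, B and C (log2 fold 1.69, adjusted p = 0.116; 2.13 and 0.00139 without C).

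MHC class II and class I genes had different orders over the treated libraries. Of 12 MHC class II genes only H2-Eb2 rose. All treated libraries were above all saline libraries in 8 of 12, against 10.1% of all genes tested. The medians in log2(CPM + 1) were 1.75, 1.18 and 1.98 in A, B and C. H2-Eb2, a class II beta chain, was at 0.399, 0.712 and 0.233 CPM and then at 5.53, 6.06 and 19.6 CPM (log2 fold 4.52, SE 0.62, adjusted p = 0.0237). H2-Aa was at 431, 113 and 190 CPM and then at 885, 655 and 857 CPM, and did not pass (log2 fold 1.71, adjusted p = 0.157). Class II genes are also expressed by B cells, whose summed markers were high in C and not in A or B. Of 21 class I genes H2-Q7 rose (41.2, 21.3 and 13.5 to 155, 80.1 and 126 CPM, adjusted p = 0.0491, called in 2 of 12 fits with a library left out); it has close copies, so its level is uncertain. The class I medians were 0.99, 0.71 and -0.23 in A, B and C. Without C, 11 of 21 rose, against 9.83% of all genes tested. Tap1, a peptide transporter, was at 412, 346 and 116 CPM in A, B and C and at 63.9 to 129 CPM under saline.

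Most genes that mark resident Kupffer cells were lower in the treated libraries, but none of the 29 was called. All treated libraries were below all saline libraries in 20 of 29 and above them in none, against 11.6% and 10.1% of all genes tested. The medians in log2(CPM + 1) were -1.16, -0.73 and -0.79 in A, B and C. Without C 6 fell (Clec4f, Id3, Fabp7, Ptgs1, Slc16a9 and Cd207) and none rose, where 7.04% of all genes tested fell and 9.83% rose. Clec4f, a lectin found on mouse Kupffer cells (ENSMUSG00000014542, chromosome 6, 83644542 to 83656187), was at 7466, 5989 and 9634 CPM under saline and at 828, 1601 and 3869 CPM in A, B and C (log2 fold -1.87, SE 0.56, adjusted p = 0.115; -2.67 and 0.0106 without C). The receptor Vsig4, which binds complement-coated particles, was at 3083, 2651 and 3580 CPM and then at 604, 985 and 1804 CPM. For Clec4f and Vsig4, A was lowest and C nearest to saline. Timd4, which binds dying cells, showed no common direction: 555, 446 and 624 CPM, then 478, 756 and 300 CPM. Csf1r, the receptor for the macrophage growth factor CSF1, was at 4687, 4284 and 5506 CPM and then at 2019, 2970 and 2765 CPM (adjusted p = 0.174).

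Scavenger and lipid genes were lower in several members. Among the phagocytosis and scavenger (40 tested), LXR and lipid (28) and lysosome (38) lists no gene was called with all libraries. All treated libraries lay below all saline libraries in 15, 11 and 15 of them, against 11.6% of all genes tested. Without C, 7, 10 and 5 fell and 2, 1 and 0 rose, where 7.04% of all genes tested fell and 9.83% rose. Apoe, a lipid carrier and LXR target, was at 10660, 10713 and 14444 CPM and then at 2546, 2949 and 6874 CPM (log2 fold -1.53, adjusted p = 0.0972; -2.13 and 0.00586 without C). Mrc1, the mannose receptor, was at 1905, 1637 and 1909 CPM and then at 266, 377 and 1215 CPM (adjusted p = 0.215; 0.0282 without C), so C was nearest to saline in both. Trem2, a lipid receptor of macrophages, was at 63.9, 72.9 and 87.6 CPM and then at 8.29, 8.73 and 43.3 CPM (adjusted p = 0.227; 0.0217 without C).

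The genes of heme and iron handling, which define macrophages that recycle red cells, gave no call among 32 tested. Without C 1 rose (Cp) and 2 fell (Flvcr2 and Hfe), where 9.83% of all genes tested rose and 7.04% fell. Hmox1, the enzyme that opens the heme ring (ENSMUSG00000005413, chromosome 8, 75093621 to 75100589), was at 11528, 10344 and 10946 CPM under saline and at 8920, 13116 and 6047 CPM in A, B and C (log2 fold -0.22, SE 0.37, adjusted p = 0.767). B lay above the saline range, A and C below. Marco, a scavenger receptor, was at 10355, 10303 and 13321 CPM and then at 16800, 21801 and 5734 CPM, and Spic, a transcription factor of red-pulp macrophages, at 367, 287 and 389 CPM and then at 385, 453 and 157 CPM. Slc40a1, the iron exporter, was lower in all 3 treated libraries without passing the test: 6050, 4825 and 7377 CPM, then 2758, 3977 and 3519 CPM (log2 fold -0.83, SE 0.35, adjusted p = 0.21). Fth1, a ferritin subunit, was at 6363, 4844 and 7301 CPM and then at 13056, 12699 and 3389 CPM. Of 32 NRF2 target genes none was called with all libraries. Without C, 3 rose and 5 fell, against the same 9.83% and 7.04% of all genes. Among the 3 was the cystine transporter Slc7a11 (0.931, 0.119 and 0.0582 to 18.2, 36.4 and 0.054 CPM). Erythroid markers summed to 7781 to 10249 CPM under saline and to 14722, 18357 and 6087 CPM in A, B and C.

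Over the 21 gene programs, C lay farthest from A and B in the chemokine, monocyte and interferon-gamma lists. The median in C was -0.58 for chemokines and 0.00 for monocyte genes, where A and B were between 2.35 and 2.68. For the CD40 and NF-kB list the medians were 1.05, 1.18 and 0.39, with 19 of 36 members above all saline libraries in C. Cell cycle genes were highest in A (median 1.63, 0.51 and 0.31 in A, B and C). All 40 lay above all saline libraries in A, 14 in B and 2 in C. Over all genes tested these shares were 39.1%, 35.1% and 33.9%, so the count in B was near that of all genes. Without C 7 rose, among them Mcm5, a subunit of the replication helicase. In that fit 9.83% of all genes tested rose and 7.04% fell. Of 34 immediate early genes, which tissue dissociation also induces, Dusp2, a phosphatase of MAP kinases, rose (5.72, 4.1 and 1.51 to 33.2, 26.3 and 29.2 CPM, adjusted p = 0.0237, called in 7 of 12 fits with a library left out) and none fell. Oxidative phosphorylation, cholesterol synthesis and unfolded protein genes had medians between -0.32 and 0.57 in each library, with no call; without C, 5, 1 and 7 rose and 0, 2 and 1 fell. Of the anti-inflammatory and Trem2-associated list (27 tested) none was called; without C, 3 rose and 7 fell.

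**Figure D4:**
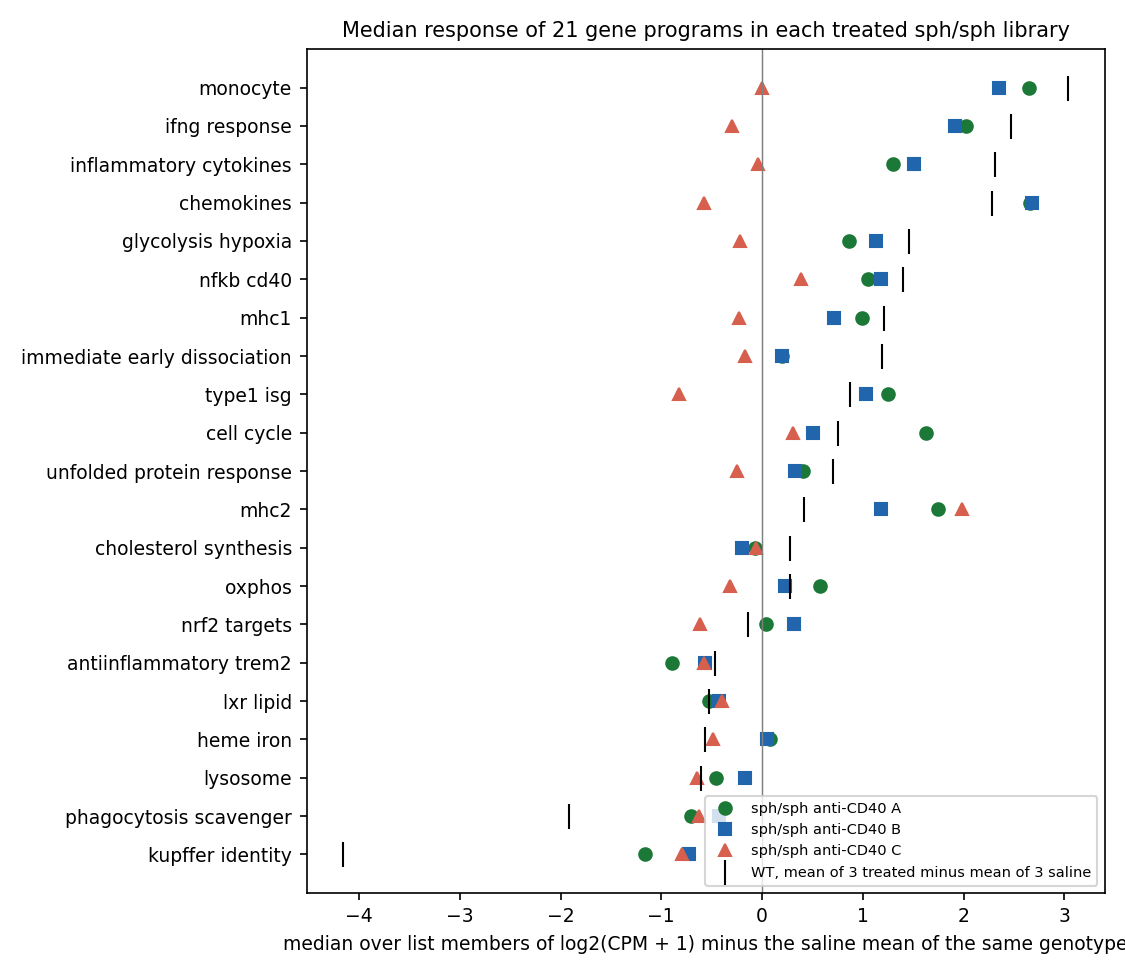
Median over the members of each of 21 gene programs of log2(CPM + 1) minus the saline mean of the same genotype, for treated sph/sph libraries A (circle), B (square) and C (triangle); the black bar is the mean WT response. Circles and squares lie together near 2 for the interferon-gamma list (2.02 and 1.91), where the triangle is at -0.30.

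Among the genes that rose without C, 1378 were tested in both fits. Library C lay above all saline libraries in 37.2% of them, within the saline range in 29% and below it in 33.7%; the median difference was 1.05 in A, 0.88 in B and 0.02 in C. Of 987 genes that fell without C, C lay below all saline libraries in 54.6%, within their range in 30.4% and above in 15%. Across all genes tested, the slope of a library's differences on the mean WT response was 0.42 in A, 0.34 in B and 0.25 in C, with a Pearson correlation of 0.58, 0.56 and 0.45. These are descriptions over genes, which are not independent; the 3 values share the saline mean, and their controls differ from those of WT.

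**Figure D5:**
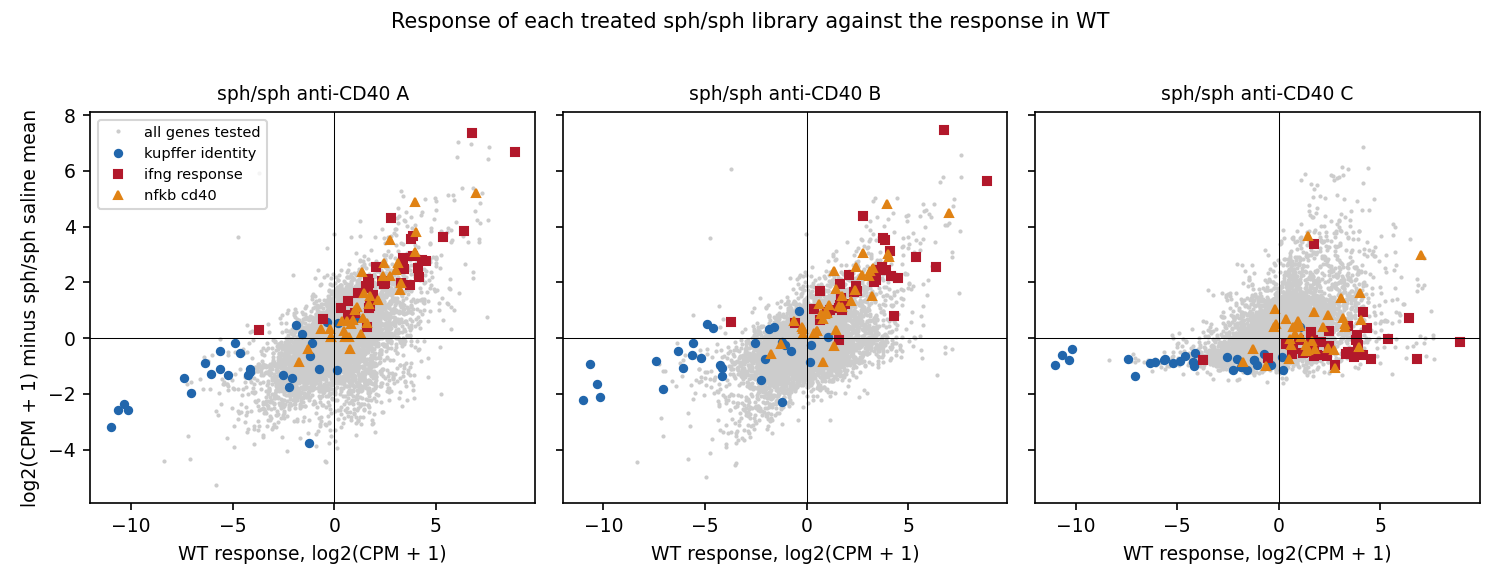
Each point is a gene: on the horizontal axis its mean WT response and on the vertical axis its difference from the sph/sph saline mean in treated library A, B or C, both in log2(CPM + 1), with 3 lists in colour. Nearly all squares of the interferon-gamma list lie above 0 in A and B and most lie near 0 in C, and most circles of the Kupffer list lie less far below 0 than their WT response.

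The response in sph/sph differed from that in WT, by the interaction contrast of the same edgeR fit, in 595 genes: 440 were higher in sph/sph than in WT (3.18%) and 155 lower (1.12%). Leaving out 1 library at a time gave 211 to 691 higher and 48 to 337 lower; 337 were lower without treated sph/sph C, and the highest count of higher genes came without WT anti-CD40 A and the lowest without sph/sph saline A. Of the 108 genes called in sph/sph, 18 were among them. Each of these had the smaller response in sph/sph: 8 risen genes had a smaller rise and 10 fallen genes a smaller fall. In the Kupffer list 17 of 29 had a higher response in sph/sph, which here means a smaller fall, and none a lower one; without C 19 had a higher one and none a lower one. Clec4f went from 10361, 9764 and 9963 CPM to 2.93, 2.41 and 7.53 CPM in WT, so that every treated sph/sph library stayed far above every treated WT library (difference of log2 folds 9.31, SE 0.90, edgeR adjusted p = 0.000426). Slc40a1 went from 6332, 4670 and 6959 CPM to 135, 67.3 and 179 CPM in WT (difference 4.73, SE 0.52, adjusted p = 0.000869). Cd163, the receptor for haptoglobin-bound haemoglobin, was at 412, 682 and 748 CPM and then at 99.3, 315 and 388 CPM in sph/sph, and fell to between 0.21 and 1.13 CPM in WT (difference 11.03, SE 0.97, adjusted p = 0.000272). Without C these 3 differences were 8.53, 4.72 and 10.69 and stayed past the threshold (adjusted p = 0.000238, 0.00154 and 0.000331).

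No member of the interferon-gamma list had a higher response in sph/sph than in WT and 1, Irf8, a lower one. Without C, 5 had a lower response (Ubd, Gbp10, Tgtp1, Irf8 and Upp1) and none a higher one. For Cxcl9 the difference of log2 folds was -3.03 (SE 1.45, adjusted p = 0.3). Il10, an anti-inflammatory cytokine, was at 4.79, 1.78 and 3.55 CPM under saline and at 54.9, 54.1 and 1.35 CPM in treated sph/sph A, B and C. In WT it was at 3.34, 2.42 and 3.49 CPM under saline and at 3.13, 3.78 and 2.17 CPM when treated. The difference between the responses did not pass with all libraries (3.47, SE 1.30, adjusted p = 0.178) and did without C (4.06, adjusted p = 0.00222). Cxcl13, which attracts B cells, was at 3.72, 3.44 and 3.55 CPM and then at 278, 308 and 1.56 CPM in sph/sph, and at 155, 56.3 and 177 CPM and then 31.1, 1.78 and 6.79 CPM in WT. Here the responses differed (difference 9.07, SE 2.09, adjusted p = 0.039), with C below the saline range. Leaving out 1 library ended that call in 10 of 12 fits (adjusted p from 0.0586 to 0.115); it held without treated sph/sph C and without WT anti-CD40 A. Il12rb2, a chain of the interleukin 12 receptor, showed no separation in sph/sph (4.66, 6.41 and 5.53 to 7.39, 6.8 and 4.96 CPM). It rose in WT, to 15.6, 46.4 and 28.1 CPM in treated A, B and C (difference -5.54, SE 0.64, adjusted p = 0.00106). T and NK cell markers summed to 183 to 409 CPM in treated sph/sph libraries and to 1126 to 3822 CPM in treated WT. The part of T and NK cells in the Il12rb2 difference was not tested.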

How the data were processed

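Liver macrophages enriched by F4/80 beads were sequenced in 12 libraries (4 groups of 3). The labels' protocols name a TruSeq kit that keeps strand. STAR 2.7.0e, SAMtools 1.9, featureCounts and the build GRCm38.p5 are named in the submitters' processing notes; the counting's strand setting and annotation release were not given in the sources used here. The authors deposited raw counts per gene, in whole numbers, and 25587 of 25700 identifiers carry a symbol. Gene coordinates come from a GENCODE annotation of GRCm38.

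Counts were fitted with edgeR 4.0.16 (R 4.3.3; TMM factors, filter on low counts by group, robust quasi-likelihood test, 1 mean for each of the 4 groups). The filter left 13844 genes; p-values were adjusted over all of them by Benjamini-Hochberg, with a threshold of 0.05. The contrasts were anti-CD40 against saline in sph/sph, the same in WT, and their difference. CPM use TMM-scaled library sizes, and per-library differences are log2(CPM + 1) minus the mean of the saline libraries; SE are approximate, from the log2 fold and the F statistic. "Rose" and "fell" are used only past the threshold. Total counts of 14991250 to 18984067 per library leave counting error small beside the spread between libraries except at a few counts. Code was tested on simulated counts.

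Alternatives were DESeq2 1.42.0 (size factors, and its own test), upper-quartile factors, no filter, limma 3.58.1 voom with and without library weights, a fit that was not robust, the 6 sph/sph libraries alone, each library left out in turn and, added after seeing the data, a term for the 4 libraries without Y-linked counts. The comparison and the 33 gene lists (4 members are not in the table) were chosen with earlier results of these data known.

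Named genes are a set of anchor genes, up to 4 called members per list, the 8 risen and 8 fallen called genes outside all lists with the largest change and a mean of at least 10 CPM, the 8 genes of at least 50 CPM with the largest spread among treated sph/sph libraries, and the 5 with the smallest p of the difference in each direction. Nfkb2, Nfkbid, Relb, Icam1, Nup62, Malt1, Il2rg, Coro1a, Jup, Senp1, Utp20, Tlr9, Apoe, Trem2, Mrc1, Fth1, Tap1, Cfb, Pgk1, Cd79a, Slc2a1, Cd5l, C6, Fabp7, Ighm, Clec4g, Epas1, Mcm5 and those listed as called without library C were chosen after their values were seen. Some genes that these rules name are not reported here. Motifs were matched on both strands of RefSeq promoters (GRCm38.p6).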

Additional observations from a re-analysis of the deposited data

Results flagged for a closer look

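In 27 named genes the response to anti-CD40 differed between sph/sph and WT by the interaction contrast of the edgeR fit (adjusted p under 0.05); each value is the log2 fold in sph/sph minus that in WT, so a positive value is a higher response in sph/sph. Among resident macrophage genes the values were 9.31 for Clec4f, 8.85 for Vsig4, 4.34 for Timd4, 11.03 for Cd163, 4.13 for Adgre1, 4.73 for Slc40a1, 3.11 for Csf1r, 5.46 for Cd5l, 6.37 for the complement gene C6 and 5.76 for the fatty acid binding protein Fabp7. The 5 genes with the smallest p in this direction gave 6.86 (Ccdc148), 7.37 (Pcolce2), 5.82 (Kcnj10), 6.29 (Gfra2) and 6.52 (Adamdec1). The fallen genes Kcnj9, Tmem273 and Cebpa gave 6.08, 2.18 and 1.54, and Cxcl13 gave 9.07.

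Lower responses in sph/sph were found for Ly6c1 (-4.59), Cst7 (-5.71), Cd9 (-2.86), Mxd1 (-2.95), Cyfip2 (-2.50), Rhoc (-2.93), Il12rb2 (-5.54) and the glucose transporter Slc2a1 (-2.42). A lower value can come from a higher saline level in sph/sph. Slc2a1 had saline means of 107 CPM in sph/sph and 20.6 CPM in WT, and treated means of 152 and 157 CPM. For Cd9 these were 74.2 and 15.9, then 62.5 and 97.7 CPM. For Rhoc they were 63.6 and 56.9, then 59.1 and 402 CPM. In Ly6c1, Cst7, Mxd1 and Il12rb2 the treated mean was also lower in sph/sph. T and NK cell markers summed to more CPM in each treated WT library than in any treated sph/sph library. The part of T and NK cells in the lower responses was not tested. Cyfip2, a regulator of actin, rose in sph/sph from 70, 66.2 and 63.3 CPM to 168, 192 and 153 CPM, and stood in WT at 12.9, 17.7 and 13.1 CPM and then at 215, 262 and 157 CPM.

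Of these 27 differences 5 lost the call when some single library was left out of the fit. Cxcl13 and Slc2a1 lost it in 10 of 12 such fits (adjusted p from 0.0586 to 0.115 and from 0.0541 to 0.116), Timd4 and Cebpa in 8 (0.0566 to 0.0925 and 0.0537 to 0.0913) and Cst7 in 4 (0.0506 to 0.0531). Each of the 5 lost it without WT saline A and without sph/sph saline A or B; without treated sph/sph C all 5 stayed called.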

How the results depend on the processing

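Against 80 risen and 28 fallen genes in sph/sph, the counts risen and fallen were 726 and 654 with the DESeq2 test, 43 and 45 with limma-voom, 1313 and 880 with voom library weights, and 0 and 0 with the sph/sph libraries alone. The fallen count was 15 with upper-quartile factors, 16 with no filter and 16 with the term for libraries without Y-linked counts. Leaving out 1 library gave 0 to 1382 risen and 0 to 990 fallen. Against 440 higher and 155 lower differences from WT, the DESeq2 test gave 834 and 559, voom weights 889 and 403, and limma-voom 97 lower; leaving out 1 library gave 211 to 691 higher and 48 to 337 lower. The median log2 fold over all genes was 0.04.

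Of the log2 folds of named genes, 24 changed sign, all of them of genes not called. With voom weights they were 0.12 for Timd4, 0.13 for Spic, 2.97 for Ddx3y, 0.05 for Rhoc and -0.86 for Ighm, and for Nr1h3 -0.05 with limma-voom and -0.01 with the Y-linked term. Leaving out 1 sph/sph library moved Timd4 from -0.48 (without treated B) to 0.18 (without treated C), Spic from -0.36 to 0.26 (the same libraries), Marco from -0.01 (B) to 0.76 (C), Nr1h3 from -0.20 (A) to 0.39 (C), Hmox1 from -0.55 (B) to 0.00 (C) and Rhoc from -0.36 (B) to 0.08 (C). Ighd ranged from -1.22 and Ighm from -0.52, both without treated C, to 5.35 (without saline B) and 2.61 (without treated B). Clec4g ranged from -2.88 (without treated C) to 0.15 (without treated A), and Ddx3y, which is 0 in A, from -0.65 to 0.52. Of the other alternative values 1587 kept sign and side of the threshold, 325 lost the call and 99 gained it; the cause was not tested. No paired analysis was possible because the columns carry no replicate number, and no number in their names is shared between saline and anti-CD40 or by more than 1 library of both genotypes in a treatment.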
